A study of Mus musculus with 9 samples.

Results

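This account covers 10 of the 26139 genes in a table of mouse kidney expression, namely Slc34a1, Slc34a3, Slc20a2, Kl, Cyp27b1, Cyp24a1, Vdr, Trpv5, Calb1 and S100g, which were chosen by name for their roles in handling phosphate, calcium and vitamin D. All 10 were found in the table. Bulk RNA sequencing was done on 3 groups of kidneys with 3 libraries each. The GQYS mice carried the Itgam-IRES-hCD89 allele, which places human CD89, a receptor for the Fc part of IgA, behind the mouse gene Itgam, and were gavaged every day for 5 months with the herbal medicine Gui-qi-yi-shen in granule form. The IgAN mice carried the same allele and were gavaged with saline. The WT mice were C57/BL6 animals without the allele, also gavaged with saline, although the sample titles of both saline groups call them untreated. The series asks what the granules do in IgA nephropathy, a kidney disease with IgA in the glomeruli. The allele is driven from a locus of myeloid cells and not of tubules, and the genes described here are mostly tubular. The sources used here do not give age or sex, and no label says whether replicate libraries stem from different animals. The p-values therefore measure the spread between these libraries, which may be partly technical.

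The kidney sets blood phosphate and calcium by how much of the filtered ions the tubule takes back. Phosphate is recovered in the proximal tubule by sodium-coupled transporters, which the hormones FGF23 and PTH withdraw from the membrane, and FGF23 acts on the kidney through its co-receptor Klotho. The proximal tubule also makes active vitamin D with the enzyme of Cyp27b1 and destroys it with that of Cyp24a1. The hormone works through the receptor encoded by Vdr, which in kidney is known to raise Cyp24a1 and to lower Cyp27b1. Further along, in the distal convoluted and connecting tubule, calcium enters cells through the channel TRPV5, is carried across by calbindins and leaves by exchangers and pumps.

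Expression was given as FPKM, fragments scaled by gene length and by library depth, and each library held 30564947 to 38161564 reads on genes. The proximal tubule list (10 of 10 genes tested) summed to 4095 to 4568 FPKM in GQYS, 4195 to 4490 in IgAN and 4207 to 4360 in WT. WT replicate 1 held 18.6% mitochondrial reads, against 7.81% to 13.3% in the other libraries. IgAN replicate 1 had 43.8 FPKM of Havcr1, a marker of tubular injury, against at most 1.79 FPKM elsewhere. WT replicate 3 had summed FPKM of 17.4 for fat markers, against at most 0.199 elsewhere, and of 14.6 for urothelial markers, against at most 5.38 elsewhere. Itgam itself ran from 0.0283 to 0.143 FPKM in GQYS, from 0.172 to 0.433 FPKM in IgAN and from 0.340 to 0.716 FPKM in WT. In whole kidney, fewer cells of a type and less RNA per cell cannot be told apart.

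The levels of the 10 genes spanned more than 3 orders of magnitude, and their order was steep. In WT kidneys Slc34a1 was highest at a mean of 1604 FPKM, the 19th highest gene of the table, followed by S100g at 620.2 FPKM and Kl at 132 FPKM. Calb1 at 65.4 FPKM and Vdr at 59.4 FPKM overlapped in their ranges, as did Cyp24a1 at 31.7 FPKM and Slc34a3 at 25.1 FPKM. Slc20a2 at 10.6 FPKM, Trpv5 at 3.003 FPKM and Cyp27b1 at 0.475 FPKM closed the order. Apart from the 2 pairs named as overlapping, the ranges of neighbours in this order did not overlap in WT.

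**Figure D1:**
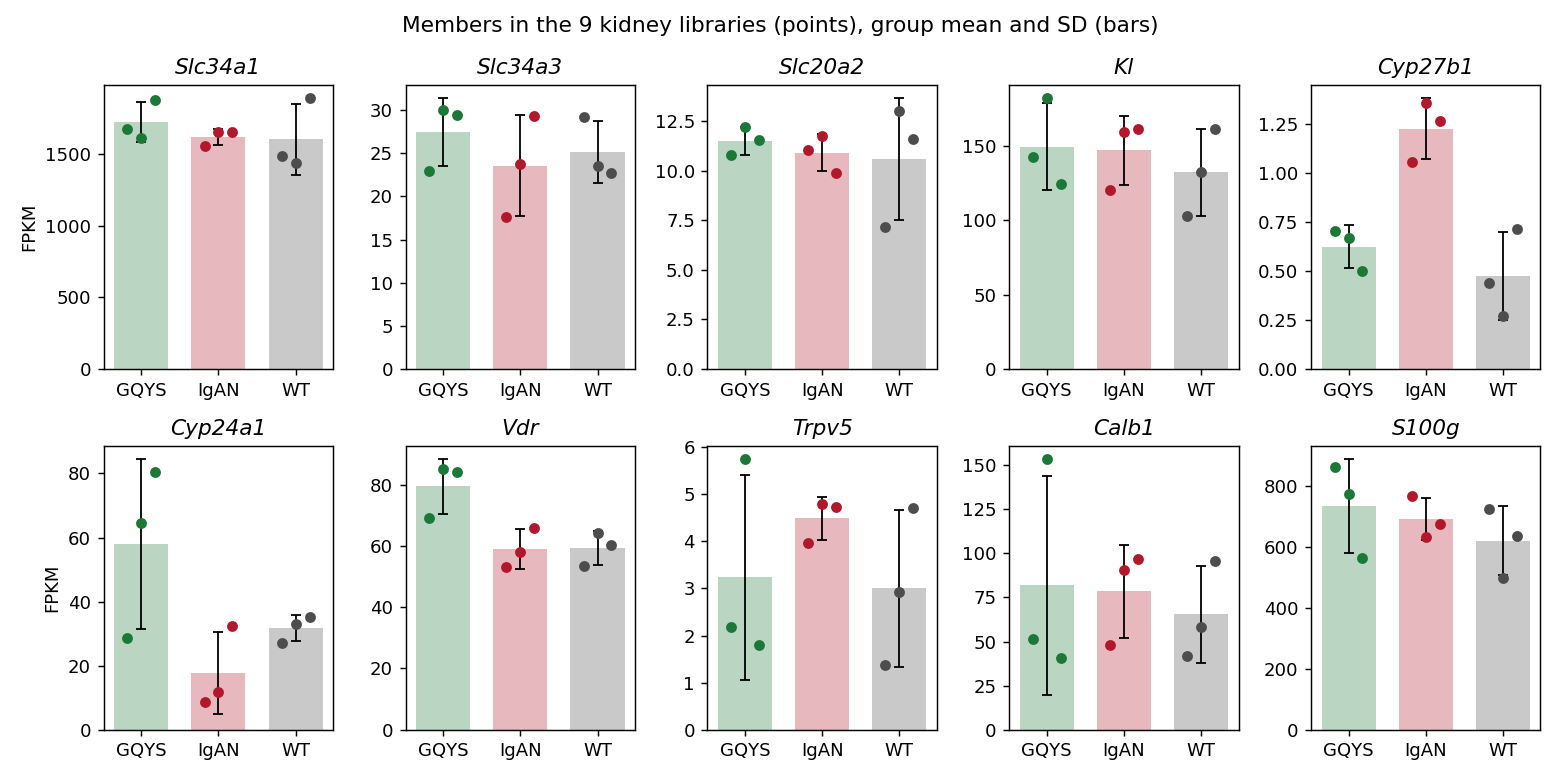
FPKM of each of the 10 genes in the GQYS, IgAN and WT libraries; points are libraries in replicate order from left to right, bars are group means from 0 and error bars are SD (n = 3). Cyp27b1 was highest in the 3 IgAN libraries and Vdr in the 3 GQYS libraries, while the points of the other 8 genes overlapped between all groups.

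None of the 10 genes passed the test in any comparison. The test was limma on log2(FPKM + 1) over 11617 genes, with a Benjamini-Hochberg adjusted p of 0.05 as the threshold, and on this scale a change of a gene near 1 FPKM is understated. In GQYS against IgAN 0 of 10 were called, beside 0.198% of all genes tested; in GQYS against WT 0 of 10 beside 0%; and in IgAN against WT 0 of 10 beside 0.353%. At an unadjusted 0.05 in limma the counts were 3 of 10 in GQYS against IgAN, 1 of 10 in GQYS against WT and 1 of 10 in IgAN against WT, beside 10.4%, 4.43% and 10.3% of all genes. The count model voom on reads recovered from the FPKM values also called 0 in each comparison, beside 0.138% of all genes in GQYS against IgAN, 0% in GQYS against WT and 0.284% in IgAN against WT. At an unadjusted 0.05 voom gave 3, 1 and 2 of 10 in these comparisons, beside 10.1%, 4.44% and 10.3%. The FPKM ranges of 2 of 10 genes stood apart in GQYS against IgAN, of 1 in GQYS against WT and of 1 in IgAN against WT, beside 19.1%, 9.74% and 14.0% of all genes tested. In GQYS against IgAN these were Vdr, higher as in 9.84% of all genes, and Cyp27b1, lower as in 9.29%. In GQYS against WT it was Vdr, higher as in 7.14%, with 0 of 10 lower beside 2.61%. In IgAN against WT it was Cyp27b1, higher as in 9.18%, with 0 of 10 lower beside 4.80%. Genes were tested at 1 FPKM or more in at least 3 libraries, which Cyp27b1 reached only in IgAN. Its separation in both comparisons with IgAN was thus in part a condition of being tested. The median log2 change of the 10 genes was 0.070, 0.15 and 0.12, against 0.0064, 0.029 and 0.021 over all genes. The IgAN libraries stand in 2 of these comparisons, and so do the GQYS and the WT libraries, so the comparisons are not independent of each other.

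**Figure D2:**
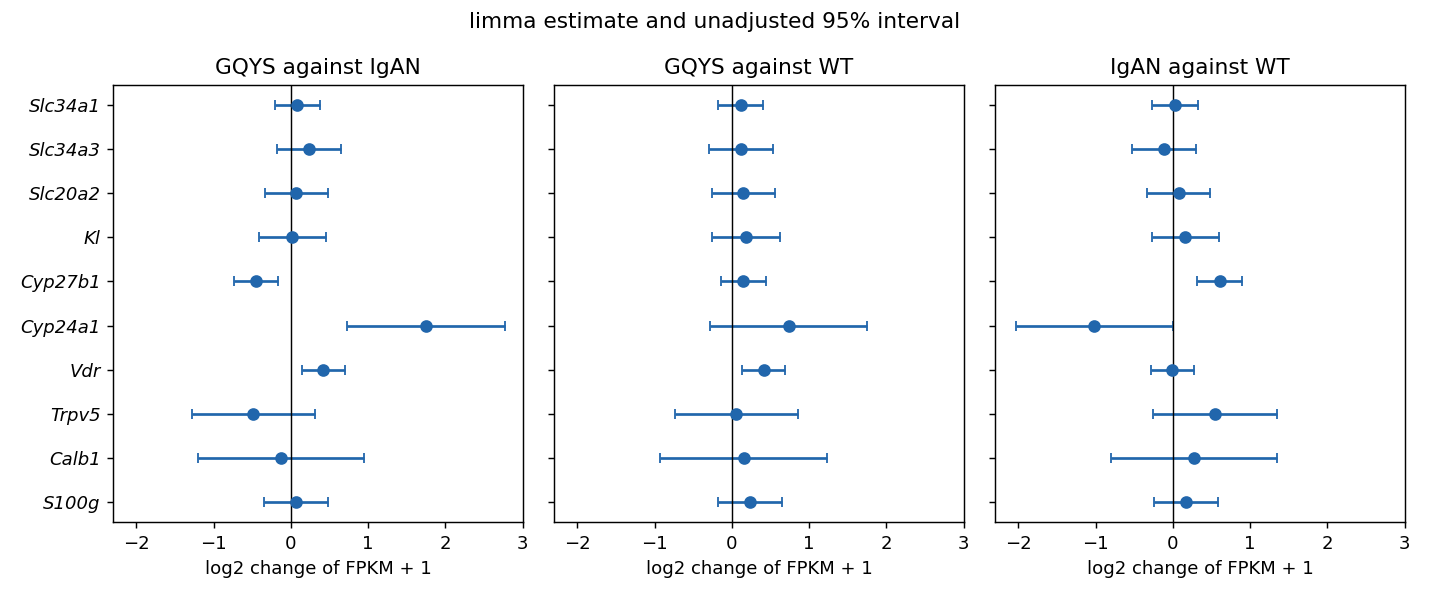
Log2 change of FPKM + 1 for each gene in GQYS against IgAN, GQYS against WT and IgAN against WT, as the limma estimate with its unadjusted 95% interval. In GQYS against IgAN the intervals of Cyp24a1 and Vdr lie above 0 and that of Cyp27b1 below it. Vdr in GQYS against WT and Cyp27b1 in IgAN against WT (0.31 to 0.89) also have intervals above 0.

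In GQYS against IgAN the vitamin D genes had the smallest p-values of the 10 genes, although no difference passed the adjusted threshold. Cyp27b1, the 1-alpha-hydroxylase that makes active vitamin D, was lower in every GQYS than in every IgAN library and higher in every IgAN than in every WT library. Vdr was higher in every GQYS library than in every library of the other groups. Cyp24a1, the 24-hydroxylase that inactivates the hormone, had its highest values in GQYS and its lowest in IgAN, with overlap. Promoter sequence is shown for Cyp27b1 and Vdr because their libraries separated by group, for Cyp27b1 in part as a condition of being tested. The stretches are the 250 bases before the annotated start, 5′ to 3′ on the gene's strand, from RefSeq on build GRCm38.p6, at chr10:127047996-127048245 on the plus strand for Cyp27b1 and chr15:97908297-97908546 on the minus strand for Vdr. Capitals mark matches to the motifs described next.
Cyp27b1: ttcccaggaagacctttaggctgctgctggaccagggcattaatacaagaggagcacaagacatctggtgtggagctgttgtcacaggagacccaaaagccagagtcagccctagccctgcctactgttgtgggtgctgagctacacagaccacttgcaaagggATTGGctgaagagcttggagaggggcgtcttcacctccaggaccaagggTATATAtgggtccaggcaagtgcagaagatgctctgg
Vdr: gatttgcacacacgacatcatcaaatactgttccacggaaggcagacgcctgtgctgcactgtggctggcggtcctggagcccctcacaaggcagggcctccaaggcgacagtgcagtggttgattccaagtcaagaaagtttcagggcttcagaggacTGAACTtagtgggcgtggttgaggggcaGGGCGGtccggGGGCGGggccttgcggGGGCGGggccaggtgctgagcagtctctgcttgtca

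Motifs were searched on both strands. They were the hexamer AGGTCA and its variant AGTTCA, which the vitamin D receptor and its relatives can bind in pairs, the GC box GGGCGG, the box named CCAAT, the TATA box written TATAAA and its variant written TATATA, and the cAMP element core CGTCA. The TATA forms can overlap each other, and in the Trpv5 window they did. The Cyp27b1 window held CCAAT on the opposite strand, starting 86 bases before the start, and TATATA 37 bases before it. Of the 32851 promoters of this length, 33.8% held CCAAT and 5.25% held TATATA. The Vdr window held GGGCGG at 63, 52 and 36 bases before the start, with no overlap between them, and AGTTCA on the opposite strand at 91 bases. GGGCGG stood in 32.7% of all promoters and AGTTCA in 11.8%. AGGTCA, found in 14.0% of promoters, had 2 matches in the Slc34a3 window and 2 in that of S100g, and was in neither printed window. TATAAA stood in 12.4% of promoters, that of Trpv5 among them, and CGTCA in 17.8%, with no match in the windows of these genes. Promoters of 7 of the 10 genes were matched, and a match describes letters and not a bound site.

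Cyp27b1 was the lowest of the 10 genes, with 58 to 260 reads per library and a counting error of 6.20% to 13.1%. It had 0.706, 0.671 and 0.498 FPKM in the GQYS libraries, 1.06, 1.36 and 1.27 FPKM in the IgAN libraries and 0.438, 0.272 and 0.713 FPKM in the WT libraries. Every IgAN value lay above every other value, while GQYS and WT overlapped. Of all genes tested, 4.64% showed that same arrangement, with IgAN above both other groups. Since FPKM 1 was reached in the 3 IgAN libraries and in no other, the gene entered the test only through that group, and its separation there is in part a condition of being tested.

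Cyp27b1 averaged 0.625 ± 0.111 FPKM in GQYS and 1.23 ± 0.155 FPKM in IgAN (SD, n = 3 each), a log2 change of -0.45 (SE 0.13) with an adjusted limma p of 0.230. IgAN stood 2.58-fold above WT by group means, where WT averaged 0.475 ± 0.223 FPKM, and the log2 change of 0.60 (SE 0.13) had an adjusted limma p of 0.104. Without a filter on low values the adjusted limma p was 0.278 for GQYS against IgAN and 0.158 for IgAN against WT. The voom model, which adds no 1 to the value, gave log2 changes of -0.97 in GQYS against IgAN and 1.503 in IgAN against WT, with adjusted p of 0.233 and 0.0854. For GQYS against WT the log2 change was 0.15, with an adjusted limma p of 0.999. The 2-sided exact permutation p was 0.1 for both comparisons with IgAN, which is the smallest that 3 against 3 libraries allow. With library quality weights in limma, and under no other setting tried, Cyp27b1 passed the threshold. The adjusted limma p was then 0.0483 in GQYS against IgAN and 0.0121 in IgAN against WT. These weights raised the genes called over the table from 23 to 404 and from 41 to 655.

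Macrophages are also known to express Cyp27b1, so markers of white cells are given beside it. The leukocyte list of 9 genes, of which 6 were tested, summed to 43.0 to 54.4 FPKM in GQYS, 83.3 to 120 FPKM in IgAN and 34.4 to 88.8 FPKM in WT. In limma 2 of the 6, the neutrophil genes S100a8 and S100a9, passed in GQYS against IgAN and in IgAN against WT, and 0 passed in GQYS against WT. The macrophage markers Csf1r, Cd68 and Lyz2 overlapped between IgAN and WT, but each was lower in every GQYS than in every IgAN library. Of all genes tested, 9.29% were lower in that way. Csf1r had 11.9 to 14.7 FPKM in GQYS, 16.3 to 19.5 FPKM in IgAN and 9.46 to 17.0 FPKM in WT. Cd68 had 1.81 to 2.58 FPKM in GQYS and 2.80 to 4.85 FPKM in IgAN. Lyz2 had 21.7 to 34.3 FPKM in GQYS and 37.5 to 62.6 FPKM in IgAN. The leukocyte gene Ptprc overlapped between all groups. The B cell gene Cd79a was lowest in IgAN, at 0 to 0.326 FPKM, against 0.768 to 1.08 FPKM in GQYS and 0.387 to 1.08 FPKM in WT. None of the 9 was at 0 in a whole group. The tubular injury list of 9 genes summed to 405 to 572 FPKM in GQYS, 543 to 1361 FPKM in IgAN and 435 to 456 FPKM in WT. In these sums Spp1 alone held 257 to 883 FPKM per library. Of the 7 injury genes tested, 1 passed in limma in GQYS against IgAN, 1 in IgAN against WT and 0 in GQYS against WT. The part of either list in the Cyp27b1 values was not tested. Without WT replicate 1 and IgAN replicate 1, the log2 change of Cyp27b1 was -0.51 in GQYS against IgAN and 0.65 in IgAN against WT, with adjusted limma p of 0.206 and 0.145.

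Cyp24a1 had 28.6, 64.7 and 80.4 FPKM in the GQYS libraries, 8.78, 11.8 and 32.5 FPKM in the IgAN libraries and 27.1, 33.0 and 35.2 FPKM in the WT libraries. Replicates 2 and 3 of GQYS lay above all other libraries and replicates 1 and 2 of IgAN below all others, while GQYS replicate 1 and IgAN replicate 3 lay inside the WT range. The lowest and highest libraries differed 9.16-fold, the widest span among the 10 genes. Its within-group SD of 0.71 on the log2 scale was larger than that of 99.6% of the genes tested.

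The group means of Cyp24a1 were 57.9 ± 26.5 FPKM in GQYS, 17.7 ± 12.9 FPKM in IgAN and 31.7 ± 4.21 FPKM in WT (SD, n = 3 each). GQYS stood 3.28-fold above IgAN by these means, with a log2 change of 1.75 (SE 0.46), an adjusted limma p of 0.192 and an exact permutation p of 0.2. In GQYS against WT the log2 change was 0.73 (adjusted limma p of 0.999), and in IgAN against WT it was -1.02 (adjusted limma p of 0.488). Without WT replicate 1 and IgAN replicate 1 the values were 1.39 in GQYS against IgAN, 0.63 in GQYS against WT and -0.76 in IgAN against WT, and none passed. Single libraries moved both values against WT by more than 1.5 times. GQYS against WT was 1.17 without GQYS replicate 1 and 0.44 without GQYS replicate 3, and IgAN against WT was -1.54 without IgAN replicate 3 and -0.66 without IgAN replicate 1. Pfdn4 lies over Cyp24a1 on the opposite strand. The extent of the overlap was not read, and without the strand setting any reads in shared sequence may be mixed. Pfdn4 held 12.4 to 14.8 FPKM in GQYS, 8.86 to 14.5 FPKM in IgAN and 10.6 to 22.3 FPKM in WT.

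The FPKM of Cyp24a1 divided by that of Cyp27b1 sets the inactivating enzyme beside the activating one within a library. This ratio was 40.6, 96.5 and 162 in the GQYS libraries, 8.32, 8.66 and 25.7 in the IgAN libraries and 61.7, 121 and 49.3 in the WT libraries. All IgAN ratios lay below all others, and GQYS and WT overlapped. Its divisor Cyp27b1 entered the test only through IgAN, where it was high, so the low IgAN ratios in part repeat that separation. Cyp24a1 alone overlapped between IgAN and WT, with IgAN replicate 3 at 32.5 FPKM inside the WT range of 27.1 to 35.2 FPKM. The ratio was formed after the values were known and is given as a description.

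**Figure D3:**
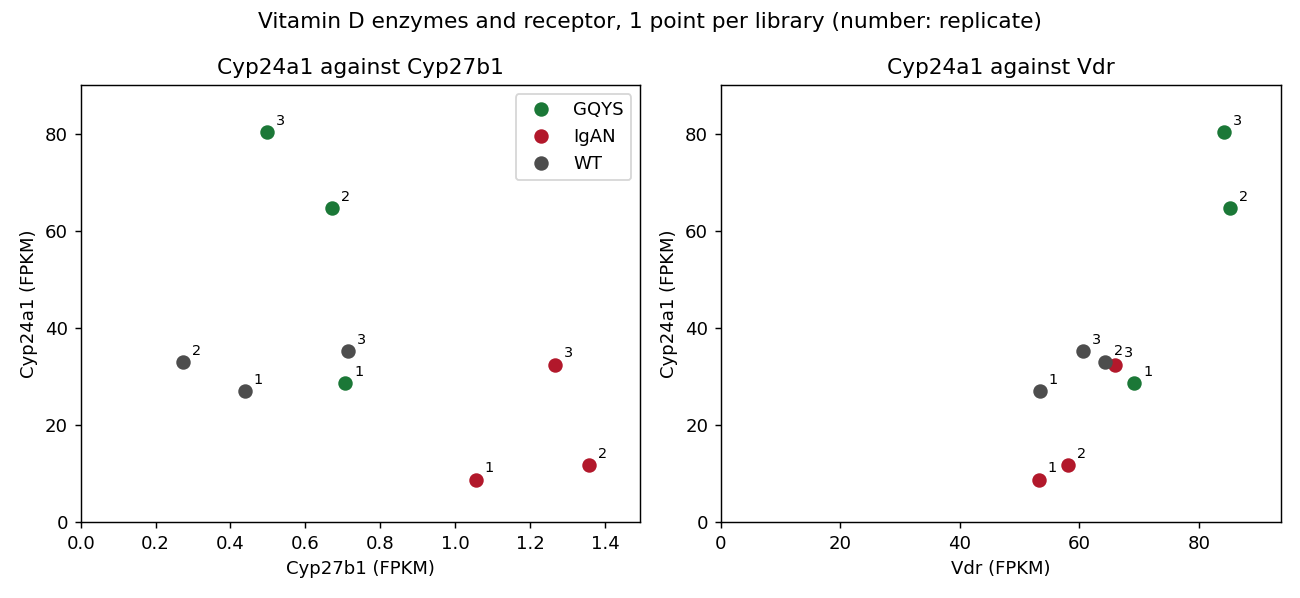
FPKM of Cyp24a1 against FPKM of Cyp27b1 (left) and of Vdr (right), with 1 point per library, the replicate number beside it and colours for GQYS, IgAN and WT. IgAN libraries lie at the right of the left panel, above 1 FPKM of Cyp27b1, and the libraries with the most Cyp24a1, GQYS replicates 2 and 3, also have the most Vdr.

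Vdr, the nuclear receptor for active vitamin D, had 69.2, 85.2 and 84.1 FPKM in the GQYS libraries, 53.2, 58.2 and 66.0 FPKM in the IgAN libraries and 53.4, 64.3 and 60.5 FPKM in the WT libraries. The lowest GQYS library lay above the highest of the other 6, and IgAN and WT covered the same range. Of all genes tested, 2.38% had GQYS above both other groups in this way. Vdr was 1.35-fold higher by means in GQYS than in IgAN (log2 change 0.42, SE 0.13, adjusted limma p of 0.259) and 1.34-fold higher than in WT (log2 change 0.41, adjusted limma p of 0.875). The exact permutation p was 0.1 in both, the smallest possible. In IgAN against WT the log2 change was -0.0087, with a 95% interval of -0.29 to 0.27. Without WT replicate 1 and IgAN replicate 1 the log2 changes with GQYS were 0.35 against IgAN and 0.34 against WT, and neither passed in limma.

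The phosphate transporters overlapped between the groups throughout. Slc34a1, which encodes NaPi-IIa, the main phosphate transporter of the proximal brush border, had 1674, 1614 and 1881 FPKM in the GQYS libraries, 1557, 1652 and 1656 FPKM in the IgAN libraries and 1485, 1437 and 1889 FPKM in the WT libraries. The highest and the lowest library were both WT ones. Its log2 changes were 0.085 in GQYS against IgAN, 0.11 in GQYS against WT and 0.026 in IgAN against WT, and the 95% intervals of the 3 ran from -0.27 at the lowest to 0.41 at the highest. The last of these values took the other sign under quantile normalisation, at -0.083.

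Slc34a3, which encodes NaPi-IIc, the second transporter of that membrane, had 23.0, 30.0 and 29.4 FPKM in the GQYS libraries, 17.6, 23.7 and 29.3 FPKM in the IgAN libraries and 29.2, 23.5 and 22.7 FPKM in the WT libraries. These ranges overlapped, with the lowest value in IgAN replicate 1. Slc34a1 exceeded it by 53.8 to 72.9 times in FPKM in GQYS, 56.5 to 88.5 times in IgAN and 50.8 to 83.3 times in WT. Slc20a2, which encodes the PiT-2 transporter found along the nephron, averaged 11.5 ± 0.717 FPKM in GQYS, 10.9 ± 0.942 FPKM in IgAN and 10.6 ± 3.06 FPKM in WT (SD, n = 3 each). The wide WT spread came from WT replicate 1 at 7.15 FPKM, below all other libraries. Overlapping genes may limit these values too. Pfn3 lies over Slc34a1 and held up to 0.626 FPKM. Smim19 lies over Slc20a2 and held 13.9 to 15.1 FPKM in GQYS, 10.7 to 12.3 in IgAN and 14.1 to 16.4 in WT. The smallest adjusted limma p of Slc34a3 and Slc20a2 over the 3 comparisons was 0.777, for Slc34a3 in GQYS against IgAN.

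Kl encodes Klotho, the co-receptor that makes tubule cells respond to FGF23. It had 143, 182 and 124 FPKM in the GQYS libraries, 120, 159 and 162 FPKM in the IgAN libraries and 103, 133 and 162 FPKM in the WT libraries. The groups overlapped, with GQYS replicate 2 highest and WT replicate 1 lowest. The log2 change was 0.020 in GQYS against IgAN, 0.18 in GQYS against WT and 0.16 in IgAN against WT, and the adjusted limma p was 0.999, 0.999 and 0.874. The 95% interval of GQYS against IgAN ran from -0.42 to 0.46.

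In the distal calcium pathway the Calb1 replicates of each group lay far apart, as did those of Trpv5 in GQYS and WT. In IgAN the Trpv5 replicates lay closer, with an SD of 10.1% of the mean. Trpv5, the apical calcium channel, had 2.19, 5.74 and 1.79 FPKM in the GQYS libraries, 3.97, 4.79 and 4.72 FPKM in the IgAN libraries and 1.37, 2.93 and 4.71 FPKM in the WT libraries. Calb1, which encodes the calcium carrier calbindin-D28k, had 51.3, 153 and 40.7 FPKM in the GQYS libraries, 47.9, 90.6 and 96.6 FPKM in the IgAN libraries and 41.9, 58.3 and 95.9 FPKM in the WT libraries. Both genes peaked in GQYS replicate 2, while the other GQYS libraries lay near the low end, and no pair of groups separated. The within-group SD on the log2 scale was 0.75 for Calb1 and 0.54 for Trpv5, larger than in 99.6% and 98.7% of the genes tested.

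The log2 change of Calb1 was -0.13 in GQYS against IgAN, 0.15 in GQYS against WT and 0.28 in IgAN against WT, each with an SE of 0.48, and the smallest adjusted limma p was 0.920. That of Trpv5 was -0.48, 0.058 and 0.54 in the same comparisons, with an SE of 0.36 and a smallest adjusted limma p of 0.667. For Trpv5, GQYS against IgAN was -0.88 without GQYS replicate 2 and -0.24 without GQYS replicate 3. IgAN against WT was 0.84 for Trpv5 without WT replicate 3 and 0.21 without WT replicate 1, and GQYS against WT changed sign, as low as -0.33 without GQYS replicate 2. Without GQYS replicate 2 the Calb1 value in GQYS against IgAN was -0.70, and the GQYS mean was 46.0 FPKM without that library, against 81.8 FPKM with it. S100g, which encodes calbindin-D9k and is far more abundant, had 864, 775 and 565 FPKM in the GQYS libraries, 767, 634 and 674 FPKM in the IgAN libraries and 725, 499.6 and 636 FPKM in the WT libraries. Its groups overlapped, and its highest library, GQYS replicate 1, was not the one in which Calb1 and Trpv5 peaked. Ctps2 lies over S100g on the opposite strand, so here too any reads in shared sequence may be mixed. Ctps2 held 5.46 to 5.95 FPKM in GQYS, 4.79 to 5.36 FPKM in IgAN and 4.81 to 6.34 FPKM in WT. The adjusted limma p of S100g was 0.973, 0.999 and 0.845 for GQYS against IgAN, GQYS against WT and IgAN against WT.

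Markers of the distal convoluted tubule varied between libraries too. Slc12a3, the thiazide-sensitive cotransporter that defines this segment, had 122, 243 and 117 FPKM in the GQYS libraries, 171, 209 and 131 FPKM in the IgAN libraries and 113, 178 and 254 FPKM in the WT libraries. The list of 7 such markers, all tested, summed to 194 to 375 FPKM in GQYS, 221 to 307 FPKM in IgAN and 201 to 360 FPKM in WT, with GQYS replicate 2 highest of all. The FPKM ratio of Calb1 to Slc12a3 was 0.349 to 0.631 in GQYS, 0.280 to 0.737 in IgAN and 0.327 to 0.377 in WT. That of Trpv5 to Slc12a3 was 0.0154 to 0.0236 in GQYS, 0.0229 to 0.0360 in IgAN and 0.0121 to 0.0185 in WT. On the Trpv5 ratio every IgAN library lay above every WT library, while GQYS overlapped with both. Both ratios are given as a description. The part of the segment's share of the sample in the Calb1 and Trpv5 values was not tested.

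Some of the 10 genes moved together from library to library. Over the 9 libraries and 45 pairs of genes, correlations of log2(FPKM + 1) passed an adjusted p of 0.05 for 1 pair, Kl and Calb1, with Pearson's r = 0.92 (exact permutation p = 0.00107, adjusted 0.0482) and Spearman's rho = 0.93 (exact permutation p = 0.00075, adjusted 0.0337). Without the 2 libraries farthest from the median of Kl, r was 0.93, and for deviations from the group means it was 0.94. Trpv5 and Calb1 gave r = 0.87 and rho = 0.88, with adjusted exact permutation p of 0.0712 and 0.0692, and r = 0.82 without the 2 farthest libraries. Kl and Trpv5 gave r = 0.83 and rho = 0.83, with adjusted exact permutation p of 0.0712 and 0.124. Their r fell to 0.63 without the 2 farthest libraries and was 0.91 for deviations from the group means. For Cyp24a1 and Vdr, r was 0.84 and rho 0.80 (exact permutation p = 0.00633 and 0.0138, adjusted 0.0712 and 0.156), and r was 0.88 without the 2 farthest libraries and 0.88 for deviations from the group means. In each group the library with the least Vdr also had the least Cyp24a1. In GQYS and in WT, however, replicate 2 had the most Vdr and replicate 3 the most Cyp24a1. This pair did not pass the adjustment. Cyp27b1 and Cyp24a1 gave r = -0.56 over all libraries (exact permutation adjusted p = 0.545) and -0.015 within groups. Libraries share their tissue sampling and scaling, which all these correlations contain.

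**Figure D4:**
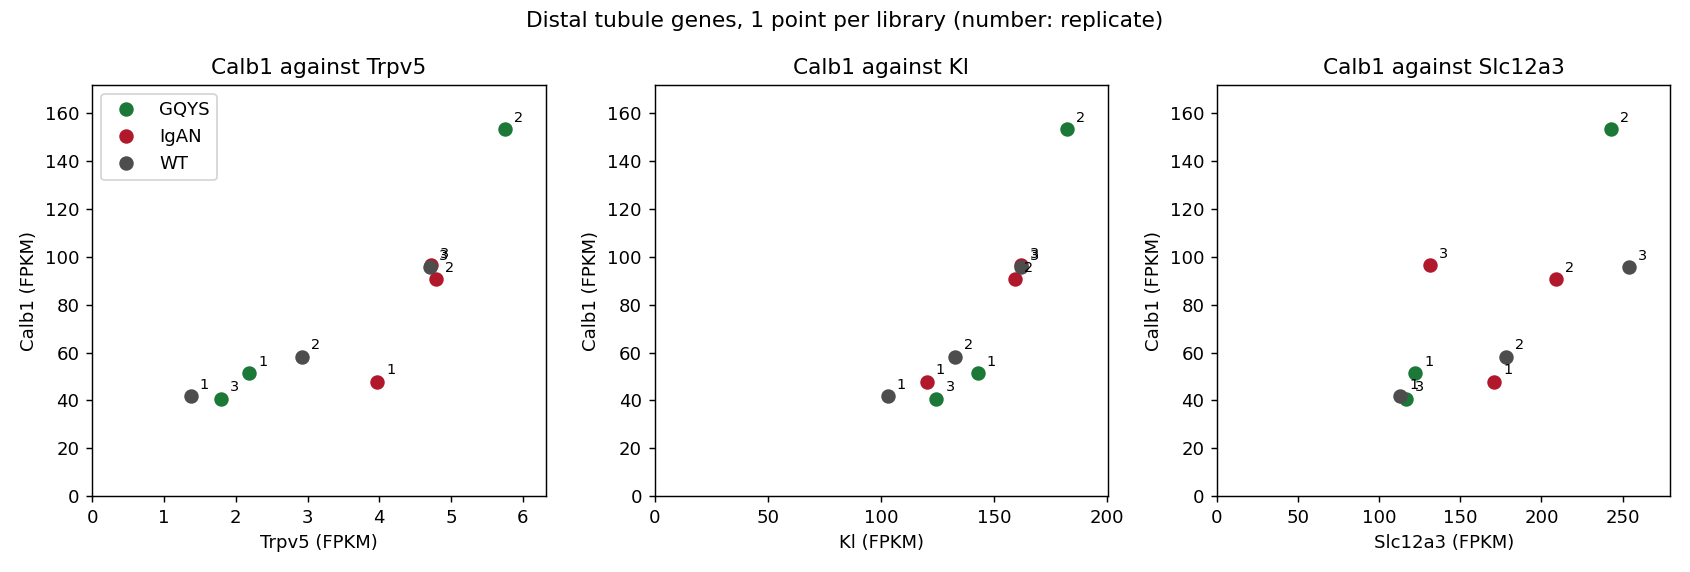
FPKM of Calb1 against FPKM of Trpv5 (left), Kl (middle) and Slc12a3 (right), with 1 point per library, the replicate number beside it and colours for GQYS, IgAN and WT. GQYS replicate 2 is highest for Calb1 at 153 FPKM and also has the most Trpv5 and Kl, while Slc12a3 is highest in WT replicate 3 at 254 FPKM.

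Outside the set, the genes closest in pattern to each member were found as those with the highest Pearson r of log2(FPKM + 1) over the 9 libraries among all genes tested, given here as descriptions. Cyp27b1 was closest to Hsp90ab1 (r = 0.99) and Arid5b (r = 0.97), and Cyp24a1 to Plpp6 and Itga8 (r = 0.96 each). Vdr was closest to Asb7 (r = 0.97) and Fbxo31 (r = 0.96). Among the phosphate genes, Slc34a1 was closest to Ranbp9 (r = 0.89) and to Pth1r (r = 0.86), the receptor through which PTH withdraws this transporter. Alyref2 (r = 0.91) was among the closest to Slc34a3, and Slc20a2 was closest to Magi3 and Mideas (r = 0.98 each) and Kl to Znfx1 and Bcr (r = 0.98 each). Bcr was also among the closest to Calb1 (r = 0.95), beside Cwh43 (r = 0.95). Trpv5 was closest to Avpr1a (r = 0.99), a vasopressin receptor, and Ripk4 (r = 0.98), and S100g to Rack1 (r = 0.89) and Uroc1 (r = 0.88).

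The wider pathways were read from lists of other phosphate, calcium and vitamin D genes, of which 52 were in the table and 45 were tested. In limma 0 of 45 were called in any of the 3 comparisons, and voom also called 0. At an unadjusted 0.05 the limma counts were 3 in GQYS against IgAN, 2 in GQYS against WT and 3 in IgAN against WT. All genes gave the 10.4%, 4.43% and 10.3% stated above. FPKM ranges stood apart for 5, 2 and 4 of the 45 in these comparisons, beside 19.1%, 9.74% and 14.0% of all genes tested. The median log2 change of the 16 phosphate genes was -0.048, -0.0074 and 0.061 in these comparisons, that of the 12 calcium genes -0.15, -0.032 and 0.098, and that of the 17 vitamin D genes 0.060, 0.060 and 0.020. Fgf23, the phosphate hormone made in bone, did not exceed 0.0111 FPKM, and Trpv6, the other epithelial calcium channel, did not exceed 0.776 FPKM. Both stayed below the filter, as did Phex, Atp2b2, Cldn14, Cyp2r1 and Rxrg.

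In the phosphate list Stc1, which encodes stanniocalcin, a hormone that in fish lowers calcium uptake, had 0.478, 1.47 and 1.06 FPKM in the GQYS libraries, 2.89, 1.58 and 3.52 FPKM in the IgAN libraries and 0.835, 0.909 and 0.830 FPKM in the WT libraries. All IgAN values of Stc1 lay above all others, as in 4.64% of all genes tested, and GQYS and WT overlapped. Outside IgAN, Stc1 reached 1 FPKM only in GQYS replicates 2 and 3, so it met the filter only with the IgAN libraries. Its separation is thus in part a condition of being tested. The genes named from this list were also picked for their small p, so their separation follows in part from that choice. The log2 change was -0.87 in GQYS against IgAN (adjusted limma p of 0.191) and 0.94 in IgAN against WT (adjusted limma p of 0.144). Fam20c, the kinase that phosphorylates secreted proteins including FGF23, averaged 21.4 ± 0.245 FPKM in GQYS, 19.6 ± 1.90 FPKM in IgAN and 15.5 ± 1.20 FPKM in WT (SD, n = 3 each). Both knock-in groups lay above WT in every library. Of all genes tested, 7.14% were higher in this way in GQYS against WT and 9.18% in IgAN against WT. The log2 changes were 0.44 for GQYS against WT (adjusted limma p of 0.673) and 0.31 for IgAN against WT (adjusted limma p of 0.292). Every GQYS library of Fam20c also lay above every IgAN library, as in 9.84% of all genes (log2 change 0.12, adjusted limma p of 0.793). Fgfr3, a receptor of FGF23, averaged 10.8 ± 1.23 FPKM in GQYS, 8.45 ± 1.03 FPKM in IgAN and 10.4 ± 0.807 FPKM in WT. For Fgfr3 every IgAN library lay below every library of the other groups. Of all genes tested, 4.80% were lower in this way in IgAN against WT and 9.84% higher in GQYS against IgAN. Galnt3, the glycosyltransferase that protects FGF23 from cleavage, averaged 17.4 ± 0.236 FPKM in GQYS, 19.1 ± 2.61 FPKM in IgAN and 21.0 ± 5.09 FPKM in WT, with overlap.

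In the calcium list Cldn16, a claudin that lets calcium and magnesium pass between cells of the thick ascending limb, had 4.78, 5.93 and 5.55 FPKM in the GQYS libraries, 7.22, 7.13 and 7.57 FPKM in the IgAN libraries and 7.63, 6.83 and 9.79 FPKM in the WT libraries. Every GQYS library lay below every other library. Of all genes tested, 9.29% were lower in this way in GQYS against IgAN and 2.61% in GQYS against WT. Cldn16 too was named for its small p, so its separation follows in part from that choice. Its log2 change was -0.38 in GQYS against IgAN (adjusted limma p of 0.354) and -0.49 in GQYS against WT (adjusted limma p of 0.757). Its partner Cldn19 averaged 5.96 ± 1.24 FPKM in GQYS, 7.15 ± 1.87 FPKM in IgAN and 7.63 ± 2.07 FPKM in WT, and Umod, which encodes uromodulin of the same segment, 1113 ± 45.4 FPKM in GQYS, 1393 ± 253 FPKM in IgAN and 1279 ± 343 FPKM in WT. For Umod every GQYS library lay narrowly below every IgAN library, at most 1143 against at least 1165 FPKM (adjusted limma p of 0.679). Of all genes tested, 9.29% were lower in this way. The summed FPKM of the thick ascending limb list, which contains Umod, was 1618 to 1734 in GQYS, 1678 to 2355 in IgAN and 1440 to 2277 in WT, and its part in these values was not tested. Gna11, the G protein subunit that relays the calcium-sensing receptor, averaged 22.5 ± 1.52 FPKM in GQYS, 24.0 ± 0.797 FPKM in IgAN and 22.5 ± 1.25 FPKM in WT.

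No partner of the vitamin D genes passed the threshold in limma in any comparison. Rxrb, a partner with which the receptor binds DNA, averaged 15.0 ± 1.06 FPKM in GQYS, 15.9 ± 0.473 FPKM in IgAN and 14.6 ± 0.999 FPKM in WT (SD, n = 3 each). For Rxrb every IgAN library lay above every WT library, as in 9.18% of all genes tested. Dab2, an adaptor for the uptake of filtered vitamin D with its binding protein, averaged 80.9 ± 4.31 FPKM in GQYS, 70.2 ± 6.94 FPKM in IgAN and 74.7 ± 7.71 FPKM in WT. Gc, which encodes that binding protein, averaged 19.8 ± 8.52 FPKM in GQYS, 14.9 ± 8.52 FPKM in IgAN and 14.6 ± 0.820 FPKM in WT, so it varied more within the knock-in groups than between them. Ncoa3, a coactivator of nuclear receptors, likewise had adjusted limma p of 0.797 or more in all 3 comparisons. The smallest adjusted limma p among the named vitamin D partners was 0.611, for Dab2 in GQYS against IgAN.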

How the data were processed

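RNA from 9 mouse kidney samples was extracted with TRIzol and made into libraries with the VAHTS Universal V6 kit (source: the labels' protocols). FPKM values for 26139 genes are what the authors deposited. Build GRCm39 and the tools HISAT2, HTSeq, fastp, R 3.2.0 and DESeq2 stand, with no roles, in the submitters' processing notes; the sources used here do not give the annotation or strand setting. Whole reads were recovered from the steps of the FPKM values within 0.03 reads for all genes, which gave the depths printed; since FPKM is relative to the library total, abundant genes can shift others.

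Values were tested as log2(FPKM + 1) with limma 3.58.1 in R 4.3.3 (all 9 libraries, with a mean-variance trend), for 11617 genes of at least 1 FPKM in at least 3 libraries, with Benjamini-Hochberg adjustment per comparison. The script was tested on simulated data. Single values used 2-sided exact permutation tests, and figures used Python 3.11.15 with matplotlib 3.10.9. Columns were matched to samples by library name. Voom on the recovered reads was an alternative; others covered pseudocount, filter, scaling, replicate block, libraries in the fit, quality weights and libraries left out.

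The genes and lists were chosen with earlier results of these data known. Named beside the 10 genes are, per pathway list and comparison, the 2 tested genes with the smallest p, and per member the 2 genes most like it, without predicted genes; some genes so selected are not reported here. Fgf23, Trpv6 and other untested genes were named after their values were seen. Overlapping genes were read from GENCODE M21 by name only. Between replicates the chi-square per gene was 17.7 to 189, so none was a copy of another.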

Additional observations from a re-analysis of the deposited data

How the results depend on the processing

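Of 630 alternative values for the 10 genes (21 alternatives in each of 3 comparisons), 590 kept their direction and their side of the threshold, 38 took the other sign and 2 passed the threshold. The causes were not tested. With library quality weights 1 of the 10 genes passed in GQYS against IgAN and 1 in IgAN against WT (Cyp27b1 in both), as did 2, 1 and 2 phosphate genes in GQYS against IgAN, GQYS against WT and IgAN against WT; the genes called over the table then numbered 404, 53 and 655, against 23, 0 and 41. The adjusted p of Cyp27b1 ran from 0.0483 to 0.709 over the alternatives in GQYS against IgAN and from 0.0121 to 0.284 in IgAN against WT.

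The table's count in GQYS against IgAN was 15 with a pseudocount of 0.1, 13 without a filter, 43 with the 6 libraries of the comparison in the fit, 63 without WT replicate 1 and IgAN replicate 1, and 6 to 54 with single libraries left out. Under quantile normalisation 1 gene was higher and 15 were lower, against 4 and 19. In GQYS against WT it was 0 to 1 with single libraries left out. In IgAN against WT it was 21 without a filter, 11 with the 6 libraries in the fit and 14 to 65 with single libraries left out.

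The median of the phosphate list in IgAN against WT was 0.013 under quantile normalisation, 0.0095 after rescaling without mitochondrial genes, -0.0072 without WT replicate 1 and IgAN replicate 1, and 0.0037 to 0.098 with single libraries left out. That of the calcium list was -0.14 with quality weights and -0.14 to 0.14 with single libraries left out, and in GQYS against WT it was -0.25 with weights.

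In GQYS against IgAN, quality weights gave Kl -0.17 and S100g -0.0043, and leaving out WT replicate 1 and IgAN replicate 1 gave Kl -0.12. In GQYS against WT, quality weights gave Slc20a2 -0.11, Kl -0.0019, Trpv5 -0.35 and Calb1 -0.28, and leaving out both libraries gave Slc20a2 -0.090, Trpv5 -0.27 and Calb1 -0.12. In IgAN against WT, Slc34a1 was -0.083 under quantile normalisation, -0.0053 under median-ratio rescaling and -0.029 after rescaling without mitochondrial genes. Quality weights gave Slc34a3 0.13 and Slc20a2 -0.22, and leaving out both libraries gave Slc34a3 0.18 and Slc20a2 -0.17.

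With single libraries left out, log2 changes in GQYS against IgAN ran from -0.13 to 0.14 for Kl, -0.70 to 0.24 for Calb1 and -0.060 to 0.25 for S100g. In GQYS against WT they ran from -0.090 to 0.30 for Slc20a2, -0.33 to 0.36 for Trpv5 and -0.42 to 0.52 for Calb1. In IgAN against WT they ran from -0.047 to 0.15 for Slc34a1, -0.28 to 0.075 for Slc34a3, -0.16 to 0.23 for Slc20a2, -0.0060 to 0.32 for Kl and -0.089 to 0.063 for Vdr. Where 2 libraries of a group remained, they were taken to vary like the other groups.

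The values did not settle whether replicate numbers pair the samples. Correlations of same-numbered deviations were 0.22, 0.35 and -0.10 between GQYS and IgAN and 0.32, 0.39 and -0.36 between GQYS and WT. Between IgAN and WT they were 0.58, 0.47 and 0.078. Libraries correlated best with their own number in 2, 1 and 2 of 3 cases. A replicate block gave 26, 0 and 68 called genes in these comparisons, and none of the 10 genes passed under it; Cyp24a1 came nearest, with an adjusted limma p of 0.0510 in GQYS against IgAN.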
